A study of Mus musculus with 10 samples.

Results

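The TNF superfamily ligands described here are Tnfsf4 (OX40 ligand), Tnfsf8 (CD30 ligand), Tnfsf9 (4-1BB ligand), Tnfsf10 (TRAIL), Tnfsf11 (RANK ligand), Tnfsf12 (TWEAK), Tnfsf13 (APRIL), Tnfsf13b (BAFF) and Tnfsf14 (LIGHT). They were taken by gene symbol, and all 9 have at least 1 transcript in the tables, out of 47311 genes. Tnfsf4 was chosen because it was low in libraries with mutant ASXL2 and the other ligands were chosen to set beside it, so values for the mutants against the empty vector are given as a description with no test. PolyA RNA was measured in mouse bone marrow cells labelled Lin-Kit+, which carried an empty vector, over-expressed full-length Asxl2, or over-expressed Mutant1, Mutant2 or Mutant3 Asxl2, with 2 libraries in each of the 5 groups. ASXL2 is a chromatin regulator of the Polycomb-associated ASXL family, and the study concerns its mutations in acute myeloid leukaemia. All groups were grown with IL3, IL6 and SCF, sorted for GFP and expanded. The sources used here give no mouse strain, no age, no vector promoter and no sequence change of the mutants. Nothing says that libraries came from separate animals or cultures, so p-values measure only the spread between these libraries.

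TNF superfamily ligands are mostly type II membrane proteins that act as trimers, on the cell surface or after shedding by proteases. They bind TNF receptor superfamily members, which recruit TRAF adaptors and activate NF-kB, or, for receptors with a death domain, FADD and caspase-8. OX40 ligand, 4-1BB ligand and CD30 ligand costimulate activated T cells, and OX40 ligand is known on antigen-presenting cells and on mast cells.

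The library totals lay between 52422686 and 79320702 estimated counts. Asxl2 stood at 28.7 to 30.1 TPM (a length-scaled share of transcripts) with the empty vector, 514 to 709 with full-length and 374 to 1045 with mutant Asxl2. In 4 mutant libraries the name of the deposited table carries another mutant number than the label (mutant 1 replicate 2, both mutant 2 libraries and mutant 3 replicate 1). In 2 of these, mutant 1 replicate 2 and mutant 3 replicate 1, it also carries another batch. The mutants were therefore pooled (n = 6), and batch below means the batch in the name of the deposited table unless the labelled batch is named. All 10 mast cell and basophil markers had a mean of at least 10 TPM, and Kit stood at 729 to 1050 TPM. Some libraries lay below 10 TPM for Mcpt8 (1.66 to 28.4), Mcpt4 (8.13 to 75.5) and Hdc (8.70 to 32.1). The list summed to 58890 to 61870 TPM with the empty vector, 53850 to 66780 with full-length and 54140 to 59370 with mutant Asxl2. All 8 T and NK cell and all 7 neutrophil markers had means under 1 TPM, as did 5 of 6 B cell, 4 of 8 monocyte and macrophage and 5 of 7 endothelial and stromal markers. Of the 8 dendritic cell markers, 7 had means under 1 TPM, and the list's sum was 11.6 to 16.8 TPM with the empty vector, 22.2 to 42.6 with full-length and 18.1 to 41.6 with mutant Asxl2. That sum is mostly the MHC class II gene H2-Ab1. The B cell sum was 0.869 to 1.66 TPM with the empty vector, 2.73 to 2.79 with full-length and 1.17 to 3.54 with mutant Asxl2. The 7 stem and progenitor markers, of which 4 had a mean of at least 10 TPM, summed to 2714 to 2886 TPM with the empty vector, 2141 to 2298 with full-length and 2387 to 2987 with mutant Asxl2. The endothelial and stromal sum, mostly Pecam1, was 207.8 to 216.1 TPM with the empty vector, 174.1 to 216.2 with full-length and 160.2 to 205.5 with mutant Asxl2. The full-length sums of the dendritic, B cell and progenitor lists thus lay outside the empty vector range, as did the mutant sums of the dendritic and the endothelial and stromal lists, and their part in the ligand values was not tested.

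Stretches of promoter sequence are shown for the ligands whose full-length libraries lay outside the empty vector range and that have an entry in the RefSeq promoter table (build GRCm38.p6). These are Tnfsf8, whose full-length libraries lay lower, and Tnfsf14, whose full-length libraries lay higher. Tnfsf4, Tnfsf9 and Tnfsf12 had no entry. The sequences end before the first annotated transcript start, and capitals mark matches to 3 motifs searched on both strands, with overlaps allowed. The RUNX motif searched was TGTGGT. The motif searched for GATA factors was AGATAA. The NF-kB motif searched was GGG followed by any 5 bases and then CC. The Tnfsf8 stretch, chr4:63861348-63861534 on the minus strand, is:
Tnfsf8: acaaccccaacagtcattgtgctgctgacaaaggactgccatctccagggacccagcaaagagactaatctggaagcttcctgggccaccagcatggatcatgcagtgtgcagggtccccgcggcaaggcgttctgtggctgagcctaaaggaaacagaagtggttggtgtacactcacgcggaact
The Tnfsf14 stretch, chr17:57194182-57194431 on the minus strand, is:
Tnfsf14: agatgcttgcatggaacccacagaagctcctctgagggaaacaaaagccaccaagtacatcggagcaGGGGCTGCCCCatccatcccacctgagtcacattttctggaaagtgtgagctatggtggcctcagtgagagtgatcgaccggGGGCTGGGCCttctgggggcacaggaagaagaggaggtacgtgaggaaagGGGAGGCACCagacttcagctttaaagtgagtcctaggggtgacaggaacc
The 187 bases of Tnfsf8 hold none of the 3 motifs, which occur in 10.8% (RUNX), 8.0% (GATA) and 34.6% (NF-kB) of 32851 promoters at that length. The 250 bases of Tnfsf14 hold 4 NF-kB matches and none of the others, where 45.8% of promoters hold at least 1 NF-kB match, 14.0% a RUNX match and 10% a GATA match. A match is a run of letters and no evidence of binding.

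The ligands spanned a wide range of levels, from Tnfsf12 down to Tnfsf11. Tnfsf12, the ligand of the receptor Tnfrsf12a, was the highest at 46.1 to 56.8 TPM over the 10 libraries. Tnfsf14, which binds Ltbr and Tnfrsf14, stood at 19.9 to 36.7 TPM, Tnfsf8 at 11.8 to 25.0 and Tnfsf9 at 6.68 to 17.9. Tnfsf10, a death receptor ligand, stood at 4.95 to 10.8 TPM and Tnfsf4 at 1.36 to 4.58. Tnfsf13 and Tnfsf13b, which serve B cells and plasma cells, stood at 0.551 to 0.952 and 0.121 to 0.335 TPM. Tnfsf11, the osteoclast ligand, had 0 counts in all 10 libraries, which at 3 counts per library allows up to 0.0378 to 0.0572 CPM (counts scaled to library size), for counting error only. The ranges of Tnfsf14 and Tnfsf8, of Tnfsf8 and Tnfsf9, and of Tnfsf9 and Tnfsf10 overlapped, while the other neighbours in this order did not.

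**Figure D1:**
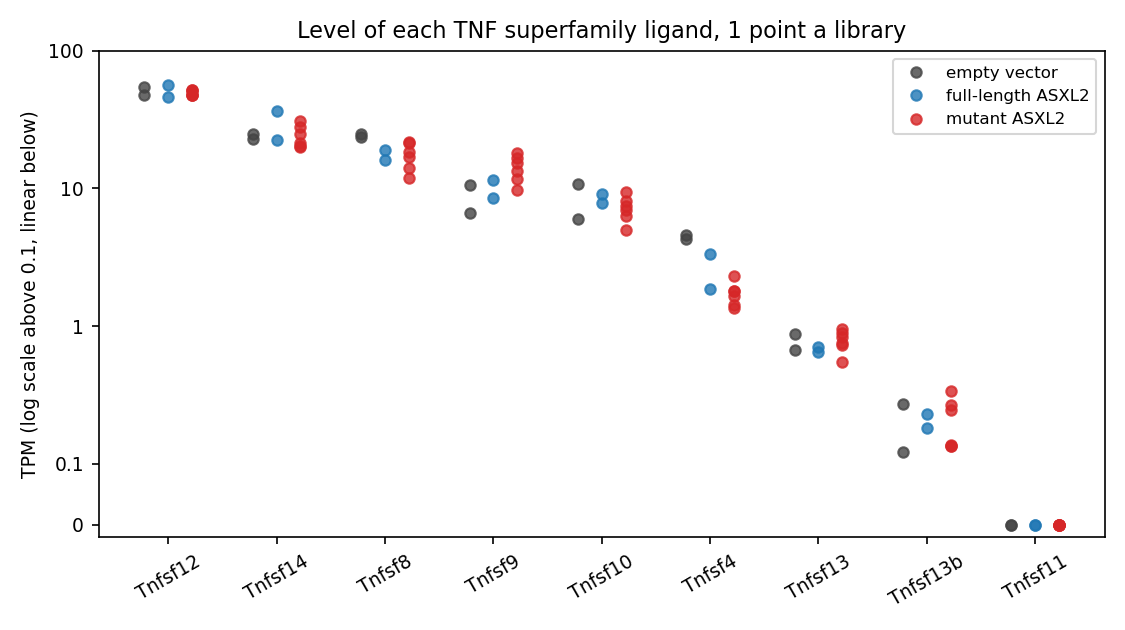
TPM of each ligand (vertical axis, log scale above 0.1 and linear below), 1 point a library, in 2 empty vector, 2 full-length and 6 mutant libraries. Tnfsf12 is the highest at 46.1 to 56.8 TPM, Tnfsf11 is at 0 in all 10, and the mutant points of Tnfsf4 lie below the empty vector points.

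The 9 genes lie at separate places on the mouse genome (mm10), apart from 2 pairs. Tnfsf4 (ENSMUSG00000026700) is at chr1:161395409-161418410 on the plus strand, Tnfsf8 (ENSMUSG00000028362) at chr4:63831308-63861347 on the minus strand and Tnfsf10 (ENSMUSG00000039304) at chr3:27317028-27342427 on the plus strand. Tnfsf9 (ENSMUSG00000035678, chr17:57105325-57107757, plus) and Tnfsf14 (ENSMUSG00000005824, chr17:57189492-57194177, minus) share chromosome 17. Tnfsf12 (ENSMUSG00000097328, chr11:69686250-69695849) and Tnfsf13 (ENSMUSG00000089669, chr11:69682846-69685784) are neighbours on the minus strand. A read-through gene, Tnfsfm13, spans that pair, and it took 416 to 954 counts against 33.7 to 74.6 for Tnfsf13. How counts were divided between them, and from the antisense gene Tnfsf13os (8 to 29 counts), is uncertain, so the values of Tnfsf12 and Tnfsf13 are too. Tnfsf4, Tnfsf8, Tnfsf9 and Tnfsf14 are each represented by 1 transcript, whereas the reads of Tnfsf13b, 7 to 21 in a library, were divided among 6, of which 2 are protein-coding.

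Tnfsf4 was low in the mutants. In CPM scaled by the TMM method, both empty vector libraries stood at 5.62, from 293 and 402 counts. By label, the mutants stood at 2.87 and 2.32 (mutant 1), 2.17 and 2.58 (mutant 2) and 2.13 and 1.87 (mutant 3), from 118 to 189 counts. The table names give 4 of these libraries another mutant number. All 6 mutant libraries lay below both empty vector libraries, at a mean of 2.33 ± 0.355 CPM (SD, n = 6), which is 41.4% of the empty vector mean. The fitted log2 fold change was -1.30 (SE 0.22). In these bulk samples, fewer cells with the transcript and less transcript per cell cannot be told apart.

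Tnfsf4 was lower in the mutants in both batches, a description in the same libraries that the gene was chosen on. In batch 1 the empty vector library stood at 5.62 CPM and the 3 mutant libraries at 2.17, 2.32 and 2.87, a log2 ratio of the mutant mean to the empty vector of -1.19. In batch 2 the empty vector stood at 5.62 and the 3 mutants at 1.87, 2.13 and 2.58, a log2 ratio of -1.36. With only the libraries whose name and label agree, of which 2 are mutant, the fitted log2 fold change was -1.28 (SE 0.36).

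Tnfsf9 was the ligand that lay higher. It stood at 8.19 and 5.55 CPM with the empty vector, and at 12.01, 14.7, 13.8, 8.92, 12.5 and 10.3 in the mutants taken by label as mutant 1, 2 and 3 with replicate 1 first. The lowest mutant library, 8.92, lay above the higher empty vector library, so the ranges did not overlap. The mutant mean was 12.03 ± 2.14 CPM (SD, n = 6) against 6.87 ± 1.86 (SD, n = 2), a fitted log2 fold change of 0.79 (SE 0.21). Within batches the log2 ratio to the empty vector was 0.72 in batch 1 and 0.93 in batch 2. Over the 10 libraries Pearson's r of log2 CPM between Tnfsf4 and Tnfsf9 was -0.85, a description over libraries that share groups and batches.

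Tnfsf8, which signals through Tnfrsf8, also lay lower in the mutants, by less. The empty vector libraries stood at 63.2 and 71.4 CPM and the 6 mutants between 37.0 and 61.6, all below both. The mutant mean was 75.7% of the empty vector mean and the fitted log2 fold change -0.43 (SE 0.17). Its log2 ratio was -0.15 in batch 1 and -0.67 in batch 2. The other 5 ligands measured overlapped between mutants and empty vector. Their fitted log2 fold changes ran from -0.15 (Tnfsf10) to 0.09 (Tnfsf14), with SEs of 0.14 to 0.51. For Tnfsf10 the log2 ratio of the mutant mean to the empty vector was -0.34 in batch 1 and 0.17 in batch 2. The sign also differed for Tnfsf13 (0.43 and -0.19), Tnfsf13b (-0.18 and 0.34) and Tnfsf14 (0.23 and -0.02). For Tnfsf12 it did not (0.11 and 0.04). In all, 3 of 8 ligands had mutant ranges apart from the empty vector range, where 14.4% of all 17810 genes tested did. The ligands were chosen on this contrast, so nothing is read from that count.

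**Figure D2:**
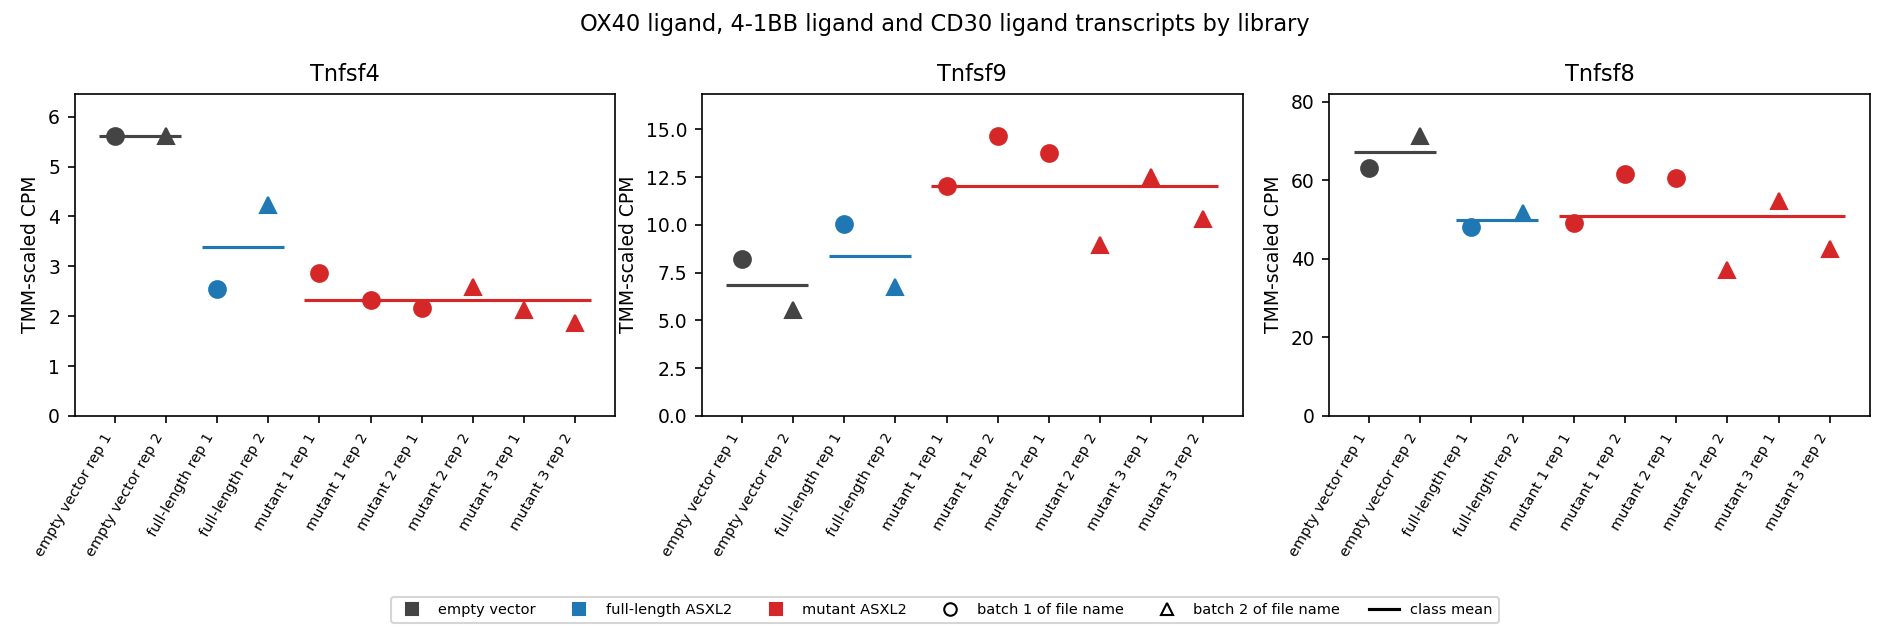
TMM-scaled CPM of Tnfsf4, Tnfsf9 and Tnfsf8 in each library (circles batch 1, triangles batch 2 of the table names), with a bar at each class mean. Mutant libraries lie below both empty vector libraries for Tnfsf4 and Tnfsf8 and above both for Tnfsf9.

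The full-length libraries ask whether the ligands also differ with over-expressed full-length Asxl2. This comparison and the next share libraries with the contrast that Tnfsf4 was chosen on, the empty vector here and the mutants there. A gene chosen as high with the empty vector and low in the mutants is drawn toward a fall in both. The p-values of Tnfsf4 in both are therefore biased and no support for a difference. Tnfsf4 stood at 2.54 and 4.22 CPM, both below the empty vector libraries, at 60.2% of their mean. The log2 fold change was -0.75 (SE 0.28, adjusted p = 0.444 by edgeR's quasi-likelihood test), and by batch it was -1.14 and -0.41. Tnfsf8 stood at 48.0 and 51.6 CPM, below both empty vector libraries (-0.46, SE 0.21, adjusted p = 0.618). Tnfsf14 stood at 31.1 and 46.5 CPM against 30.6 and 30.2 (0.34, SE 0.20, adjusted p = 0.835), and without full-length replicate 2 its log2 fold change was -0.05. Tnfsf9 overlapped, at 10.03 and 6.72 CPM (0.27, SE 0.25, adjusted p = 1.0). By edgeR 0 of the 8 ligands passed at an adjusted p of 0.05, where 0.752% of all genes did. Of the 8, 1 (Tnfsf4) had an unadjusted p under 0.05, as did 1477 of the 17810 genes. Ranges were apart for 3 of 8, where 29.5% of all genes had ranges apart.

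Mutants were then set against full-length. The mutant values of Tnfsf4 reached from 1.87 to 2.87 CPM and overlapped the lower full-length library (log2 fold change -0.55, SE 0.23, unadjusted p = 0.035, adjusted p = 1.0 by edgeR). Tnfsf9, at 8.92 to 14.7 CPM, overlapped the higher full-length library (0.52, SE 0.21, unadjusted p = 0.0313, adjusted p = 1.0 by edgeR). No ligand passed, and 0 of 17810 genes did, which is 0% by edgeR. In that fit 720 genes had an unadjusted p under 0.05, and DESeq2 called 78. A p above the threshold does not show that the levels of Tnfsf4 or Tnfsf9 were equal in both.

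**Figure D3:**
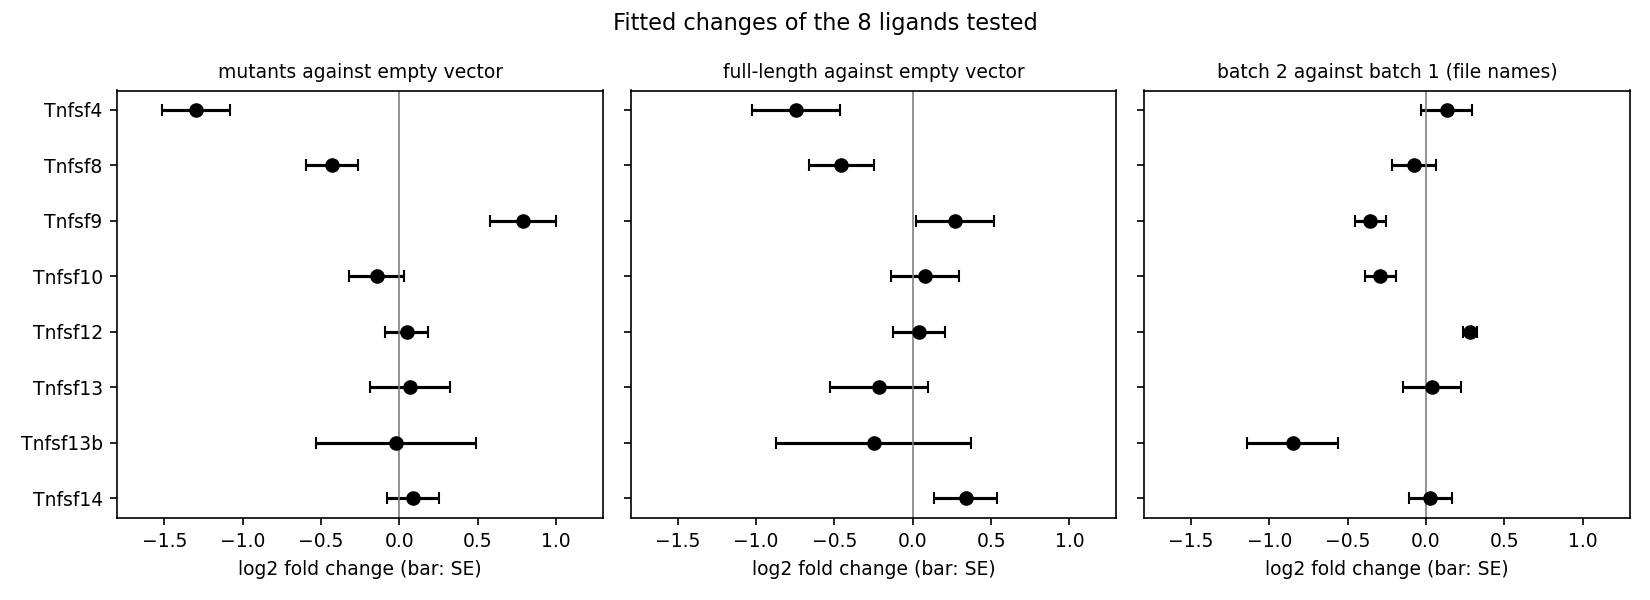
Fitted log2 fold changes of the 8 ligands measured (points) with SEs (bars), for mutants against empty vector, full-length against empty vector, and batch 2 against batch 1. Tnfsf4 lies at -1.30 and -0.75 in the first 2 panels and at 0.13 in the batch panel, where Tnfsf12 and Tnfsf13b lie to opposite sides.

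Between batches, 4 ligands passed the test, and Tnfsf4 was not among them. Tnfsf12 was higher in every batch 2 library, at 52.8 ± 2.88 CPM (SD, n = 5) against 45.9 ± 1.51 (SD, n = 5), and the ranges did not overlap (log2 difference 0.28, SE 0.05, adjusted p = 0.000431 by edgeR). Tnfsf9 was lower in batch 2 (-0.36, SE 0.10, adjusted p = 0.0110) and so was Tnfsf10 (-0.29, SE 0.10, adjusted p = 0.0330). Tnfsf13b was lower too (log2 difference -0.85, SE 0.29, adjusted p = 0.0294 by edgeR). In CPM every batch 2 library of Tnfsf13b lay below every batch 1 library, but on 7 to 21 counts. In TPM the ranges overlapped, with full-length at 0.181 in batch 1 and 0.228 in batch 2. In all 4 of 8 ligands passed, where 52.4% of all genes did, and 2 of 8 had ranges apart in CPM, where 29.8% of all genes did. Tnfsf4 (0.13, SE 0.16, adjusted p = 0.520), Tnfsf8, Tnfsf13 and Tnfsf14 did not pass. The scale matters here: of all genes called, 4731 were higher and 4608 lower in CPM, against 1139 and 6063 by limma on log2(TPM + 1), where the median gene moved by -0.11. On that TPM scale Tnfsf12 did not pass (0.12, adjusted p = 0.172). In TPM the batch ranges of Tnfsf12 overlapped, with mutant 1 replicate 1 at 51.4 in batch 1 and mutant 2 replicate 2 at 47.6 in batch 2. Tnfsf9 lost its call without either full-length library (adjusted p of 0.0546 and 0.0540), and Tnfsf10 without either empty vector or full-length library, mutant 1 replicate 2 or mutant 3 replicate 1 (0.0796 to 0.141). Tnfsf13b lost it on leaving out any one library other than mutant 2 replicate 2 or mutant 3 replicate 2 (0.0512 to 0.102). With the labelled batch as the term, 0 of the 8 passed.

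**Figure D4:**
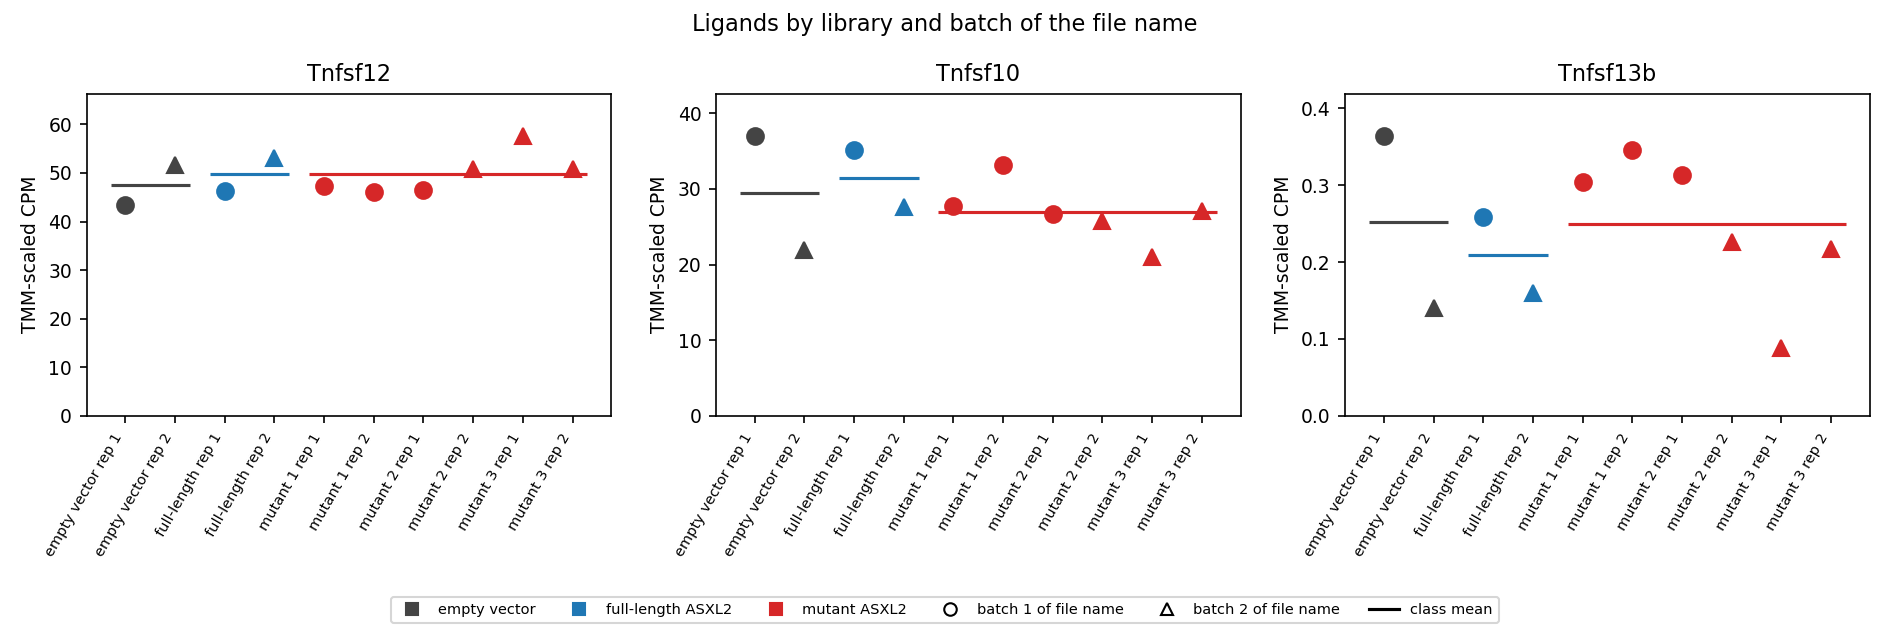
TMM-scaled CPM of Tnfsf12, Tnfsf10 and Tnfsf13b by library (circles batch 1, triangles batch 2 of the table names), with a bar at each class mean. All 5 batch 2 libraries lie above all 5 batch 1 libraries for Tnfsf12, and below them for Tnfsf13b.

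The receptors of these ligands were measured in the same libraries. The highest was Tnfrsf13b (TACI, the receptor of BAFF and APRIL) at 63.1 to 74.3 TPM, followed by Ltbr at 13.2 to 35.9. Tnfrsf4 (OX40, the receptor of Tnfsf4) stood at 2.18 to 4.63 TPM, and Tnfrsf17 was at 0 in most libraries, reaching 0.0223. The transcript for OX40 did not pass in the mutants (log2 fold change 0.10, SE 0.24, adjusted p = 0.968 by edgeR). Of the 14 receptors 13 could be tested, and 0 passed in the mutants or with full-length in the fit without a batch term, where 1.75% and 0.752% of all genes did. Their median log2 fold change in the mutants was -0.12, against -0.002 over all genes tested. With the batch of the table names as a block, 1 of the 13 rose and 2 fell in the mutants, where 10.8% of all genes passed. With full-length 1 of the 13 rose in that fit, where 5.07% of all genes passed.

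The receptor of Tnfsf9, Tnfrsf9 (4-1BB), lay on the other side from its ligand. It stood at 2.67 and 1.61 CPM with the empty vector, 1.26 and 0.888 with full-length and 0.420 to 1.17 in the mutants. All 6 mutant libraries lay below both empty vector libraries (log2 fold change -1.45, SE 0.35, adjusted p = 0.0775 by edgeR). With the batch of the table names as a block the adjusted p was 0.00343. The lymphotoxin beta receptor Ltbr, a receptor of Tnfsf14, stood at 17.1 and 24.4 CPM with the empty vector and at 34.2 to 47.4 in the mutants. It stood at 36.1 and 47.5 with full-length, so neither class overlapped the empty vector. Its log2 fold change in the mutants was 0.93 (SE 0.20, adjusted p = 0.0543 by edgeR), which passed with the labelled batch as a block (adjusted p = 0.0279) and with the batch of the table names (adjusted p = 0.000174). With full-length and the latter block it was 0.99 (SE 0.10, adjusted p = 0.000657 by edgeR).

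**Figure D5:**
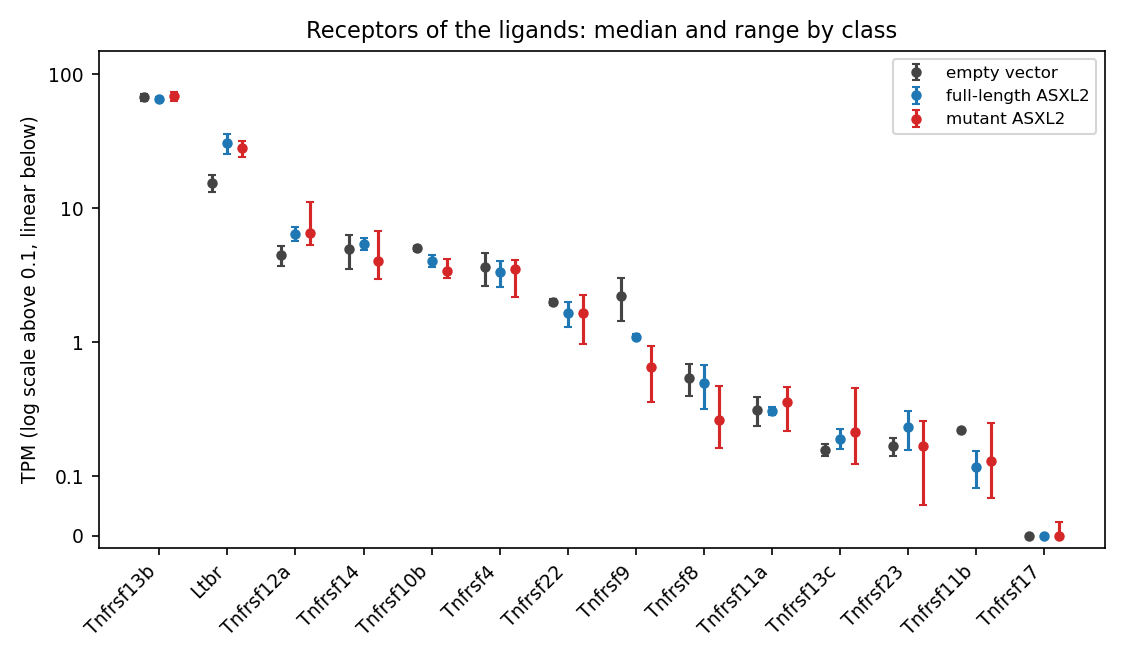
Median (point) and range (bar) of TPM of 14 receptors of the ligands, by class, on a log scale above 0.1 and linear below. Ltbr is higher in full-length and mutant libraries than in empty vector, and Tnfrsf9 is lower.

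Across all 6 pathway lists, 65 of 76 genes could be tested. These are the receptors of the members, other TNF receptors, other TNF ligands, adaptors and death signalling, the NF-kB module and ligand processing proteases. In the mutants 1 of 65 fell and 0 rose, where 1.75% of all genes passed. The gene that fell was Eda2r, the receptor of the ectodysplasin A2 form, at 17.4 and 17.9 CPM with the empty vector and 9.30 to 13.1 in the mutants (log2 fold change -0.69, SE 0.13, adjusted p = 0.0331 by edgeR). It lost the call on leaving out either empty vector library, either mutant 1 library, mutant 2 replicate 2 or mutant 3 replicate 2. With full-length 0 of 65 passed, where 0.752% of all genes did, and between mutants and full-length 0 of 65, where 0% did. With the labelled batch as the replicate block 2 of 65 passed in the mutants, Eda2r and Ltbr, where 1.88% of all genes did.

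With the batch of the table names as a block, 9 of 65 genes passed in the mutants, where 10.8% of all genes did. The 4 that rose were Ltbr, the TNF receptor Tnfrsf1b (0.50, SE 0.10), the NF-kB inhibitor Nfkbia (0.35, SE 0.09) and the protease Furin (0.35, SE 0.07). The 5 that fell were Tnfrsf9, Eda2r, the TRAIL receptor Tnfrsf10b (-0.47, SE 0.11), Nfkb1 (-0.30, SE 0.06) and Casp8 (-0.22, SE 0.06). In that fit 3 of 65 rose with full-length, where 5.07% of all genes passed: Ltbr, the adaptor Traf4 (1.21, SE 0.28) and Nfkbia (0.43, SE 0.11). Between mutants and full-length 0 of 65 passed, where 0.399% of all genes did.

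By list, the other TNF ligands had 4 testable genes of 9 with a median of -0.52 in the mutants, and none passed. Tnf stood at 1.90 to 9.43 TPM over all libraries, Ltb at 0.712 to 2.31 and Lta at 0.160 to 0.755. The adaptors (16 tested) had a median of -0.01, the NF-kB module (15 tested) 0.01 and the proteases (6 tested) -0.03. The highest of these by TPM were Birc3 and Casp8, Nfkb1, and Furin with Adam10. Between batches 18 of 65 pathway genes were higher and 21 lower, where 52.4% of all genes passed. Among them were Tnf (1.39, SE 0.20), Nfkbiz (-0.53, SE 0.06), Birc2 (-0.41, SE 0.05), Adam10 (0.38, SE 0.04) and Ltbr (0.40, SE 0.06). With the labelled batch as the term, edgeR called 0 of all 17810 genes, these included, and 1555 genes had an unadjusted p under 0.05.

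The genes most like Tnfsf4 in pattern were ranked by Pearson's r of log2 CPM over the 10 libraries, as a description over libraries that share groups and batches. They were Miga1 (r 0.97), Aup1 (0.94), Hspa8 (0.94), Rgs1 (0.94) and Pced1b (0.94). This r ranks likeness of pattern and not the size of a change. In the mutants the fitted log2 fold changes were -0.674 (Miga1), -0.135 (Aup1), -0.30 (Hspa8), -0.411 (Rgs1) and -1.234 (Pced1b). Pced1b, with the largest of these, stood at 3.07 to 3.11 CPM with the empty vector, 1.37 to 1.73 with full-length and 1.04 to 1.504 in the mutants. Next to Tnfsf4 on the chromosome, in neighbours picked after values were seen, Prdx6 did not pass in the mutants (log2 fold change -0.04, adjusted p = 0.969 by edgeR). The related ligand Tnfsf18 was at 0 in every library and Fasl reached 0.0133 TPM.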

How the data were processed

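PolyA RNA was measured in 10 libraries. Per the file headers, the authors deposited an estimated count and a TPM value per transcript (115088 rows in each table). Kallisto, DESeq2 and mm10 are named in the submitters' processing notes, without versions. Kallisto divides a read among the transcripts it fits, and strand is not stated. Transcripts were summed per gene through GENCODE M21 (GRCm38), which matched 99.3 to 99.6% of the counts of each library. Summed counts were rounded and genes kept by filterByExpr (minimum count 10), leaving 17810. The main test was edgeR 4.0.16 quasi-likelihood (robust, TMM scaling) in R 4.3.3 on 3 classes, all 10 libraries in 1 fit, with Benjamini-Hochberg adjustment over all genes and a threshold of 0.05. The comparisons of classes in that fit held no batch term, so spread between batches counted as spread within classes. The batch test added the batch of the table names to the classes. SEs were derived from the fold change and the F statistic. Alternatives were DESeq2 1.42.0, limma 3.58.1 on log2(TPM + 1) and log2(TPM + 0.1), other scaling and filters, replicate blocks and libraries left out. Scripts were tested on simulated data, which held no batch difference in the comparisons of classes.

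The members and lists were chosen with earlier results of these data known. Named genes are all 9 ligands, the genes of each list that passed (at most 6 by smallest p, otherwise the 2 highest by TPM), receptors, and the 5 genes with the highest r with Tnfsf4. The labels give the replicate numbers as batches, so same-numbered libraries were checked as pairs, but the main test did not pair them. Same-numbered deviations correlated between -0.145 and 0.578 over 10 pairs of groups, with 3 over 0.1. On the first principal component of log2 CPM (the axis of largest spread), batch 1 libraries by table name lay at -50.3 to -24.1. Batch 2 libraries by table name lay at 27 to 48.6. The labelled batches were not apart: mutant 3 replicate 1, labelled batch 1, stood at 33.2. Mutant 1 replicate 2, labelled batch 2, stood at -50.3.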

Additional observations from a re-analysis of the deposited data

How the results depend on the processing

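Tnfsf4 was chosen for its fall in the mutants against empty vector, and the alternatives reuse the same libraries. A kept sign is therefore a description and no support for the fall. Tnfsf4 kept its sign for mutants against empty vector in 22 of 22 alternatives. It moved to -1.002 by limma on log2(TPM + 1), with and without the expression filter, and ranged from -1.356 to -1.229 with 1 library left out. Ligand counts for full-length against empty vector, and for mutants against full-length, were 0 in every alternative. The 4 ligands called between batches became 2 without an expression filter, 2 with only libraries whose name and label agree, 2 without the 2 libraries whose name and label give different batches, 2 by limma on log2(TPM + 1) without a filter, 0 by labelled batch, and 1 to 4 with 1 library left out. Pathway genes called with full-length went from 0 to 1 by DESeq2 and 3 with the batch of the table names as replicate block. Pathway genes called in the mutants went from 1 to 4 by DESeq2, 2 with a filter of at least 1 CPM in 4 libraries, 2 with the replicate block by labelled batch and 9 by the batch of the table names. They went to 0 with only agreeing libraries and 0 in each of the 3 limma fits, and to between 0 and 1 with 1 library left out. As a replicate block the labelled batch changed no other ligand or pathway call between classes. As the term tested, in place of the batch of the table names, it called 0 genes, so all 18 higher and 21 lower pathway calls between batches were lost. Of all genes, 134 passed with full-length and 311 in the mutants by edgeR, against 560 and 915 by DESeq2, 903 and 1925 with the batch of the table names as block, 0 and 0 with only agreeing libraries, 14 and 69 by limma on log2(TPM + 1), 23 and 94 on log2(TPM + 0.1), 37 and 162 without the 2 libraries of conflicting batch, and 0 to 86 and 17 to 271 with 1 library left out. The cause was not tested. Depth limits Tnfsf13b and Tnfsf13, and Tnfsf11 was not detectable.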
